A study of Homo sapiens with 8 samples.

Results

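The genes described here are 31 genes of blood coagulation and fibrinolysis that liver cells are known for, out of 60230 genes in the count table. They were chosen by name, with earlier results of these data known, and each was matched to the table by its Ensembl identifier. RNA-seq had been performed on HepG2 cells, a human hepatoma line of hepatocyte character, that overexpressed cytochrome P450 3A4 (CYP3A4), a drug-metabolising enzyme of the liver. All 8 samples carried this overexpression and grew under blasticidin, so no parental cells stand beside them. The question of the study was how compounds from plastic production act on such cells. Control cells received 0.2% DMSO, and the other cells received compound 4 (treatment label metylcresol), compound 5 (tetrabut) or compound 6 (cyclohexil), with 2 samples in each of the 4 groups. The compounds are bisphenol antioxidants. In compound 4 a methylene bridge joins rings that carry tert-butyl groups, in compound 6 cyclohexyl groups stand in their place, and in compound 5 the bridge is an ethylidene group between rings with more tert-butyl groups. Each compound was given at its own IC50, so the molar doses differed between them. The labels name the 2 samples of a group day 1 and day 2 while the methods give a single exposure time, so the days are used only as replicate numbers. Nothing states that they were separate cultures, and the p-values may therefore measure technical spread.

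Coagulation is a cascade of proteases, most of them made by hepatocytes, that ends in thrombin, which cuts soluble fibrinogen into fibrin. The cascade is held in check by anticoagulants: protease inhibitors of the serpin family, the tissue factor pathway inhibitor, and the protein C pathway. Fibrinolysis then dissolves the clot through plasmin, the active form of plasminogen, and is itself slowed by circulating inhibitors. The liver secretes members of every one of these arms, and fibrinogen is also a classic acute phase protein.

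Total counts per sample ranged from 9472261 to 13308975, so that 3 counts, used here as the detection floor, corresponded to 0.225 to 0.317 CPM, where CPM are counts scaled by library size, the total counts for this floor and the TMM-adjusted totals for all levels. CYP3A4 was present in all 8 samples, at 198 and 207 CPM in DMSO and between 171 and 421 CPM under the compounds. All 10 hepatocyte and hepatoma markers were at or above 1 CPM in every sample. Their summed level was 39456 to 41268 CPM in DMSO, 30853 to 30927 under compound 4, 32719 to 32945 under compound 5 and 31441 to 37790 under compound 6. The close sums under compound 4 hid opposite differences between its samples, with APOB at 6521 and 2889 CPM and ALB at 12910 and 15080. Nor did every marker fall there, as TTR rose by 0.66 on the log2 scale (adjusted p = 0.0365). Endothelial, platelet, fibroblast and leukocyte markers were scarce, and KDR, TEK, PF4, PPBP, GP1BA, COL1A2, DCN, PTPRC, CD3E and MS4A1 had no count in any sample. The summed leukocyte list, nearly all of it CD68, was 27.4 to 38.6 CPM in DMSO, 57.2 to 58.9 under compound 4, 36.3 to 39.6 under compound 5 and 48.3 to 51.5 under compound 6. CD68 rose under compound 4 by 0.80 on the log2 scale (adjusted p = 0.0079) and was at 0.19 and 0.58 under compounds 5 and 6 (adjusted p 0.377 and 0.0596). CD14 had 1 and 2 counts in DMSO, 11 and 16 under compound 4, 5 and 8 under compound 5, and 9 and 12 under compound 6. The summed fibroblast list was 17.5 to 21.6 CPM in DMSO, 18.7 to 22.1 under compound 4, 10.7 to 11.6 under compound 5 and 18.3 to 19.8 under compound 6. It was mostly ACTA2, which fell under compound 5 by 1.20 on the log2 scale (adjusted p = 8.37e-04), while PDGFRB of the same list rose under compound 4 by 1.80 (adjusted p = 0.00864) and was at 0.76 under compound 5 (adjusted p = 0.153). The part of these shifts in the results below was not tested, and in bulk RNA fewer cells of a kind and less RNA per cell cannot be told apart.

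The line expressed most of these genes. In DMSO cells, levels per kilobase of the longest coding transcript spanned from A2M (alpha-2-macroglobulin, a broad protease inhibitor) at 882 CPM per kb to genes with only a few counts. FGG, encoding the fibrinogen gamma chain, followed at 526 CPM per kb, F2 (prothrombin) at 241 and SERPINF2 (alpha-2-antiplasmin, the main plasmin inhibitor) at 195. Of the neighbours in this order, SERPIND1 (heparin cofactor II) and SERPINA5 (protein C inhibitor) stood at the same level of 143 CPM per kb. At the lower end F7, PLAUR, PROZ, F3 and F12 lay between 1.71 and 3.29 CPM per kb. F9 (coagulation factor IX) and THBD (thrombomodulin, normally an endothelial receptor) had 0 counts in all 8 samples, which allows a level of up to 0.225 to 0.317 CPM at these depths. HRG (histidine-rich glycoprotein), F13B (the carrier subunit of factor XIII), PLAT (tissue plasminogen activator) and PLAU (urokinase) had at most 17 counts in any sample and did not pass the filter on low counts.

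Of the 31 genes 25 were tested, in an edgeR quasi-likelihood fit over 13404 genes with Benjamini-Hochberg adjustment at 0.05. Compound 5 gave 9 calls among the 25, with 1 higher (KNG1) and 8 lower, compared with 28.1% of all genes tested. Compound 4 changed 4, all lower, beside 11.9% of all genes, and compound 6 changed 1, lower, beside 4.40% of all genes. With compound 6 the count was 4 (FGA, FGG and SERPINF2 beside CPB2) in DESeq2, without a filter and in the groups compared alone, where 5.29%, 6.34% and 6.78% of all genes were called. The median log2 fold change of the 25 genes was -0.14 under compound 4, -0.20 under compound 5 and -0.12 under compound 6, while the medians of all genes tested were 0.00, -0.03 and 0.00. The 3 comparisons share the same 2 control samples, so their values are set side by side and are not independent. KNG1 passed the filter on low counts only through compound 5, so it had to differ there: it stands in these counts but lends them no support. Of the other calls against DMSO, 4 were kept whichever of the 8 samples was left out, those of CPB2 under compound 4 and of PROS1, TFPI and SERPINF2 under compound 5.

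**Figure D1:**
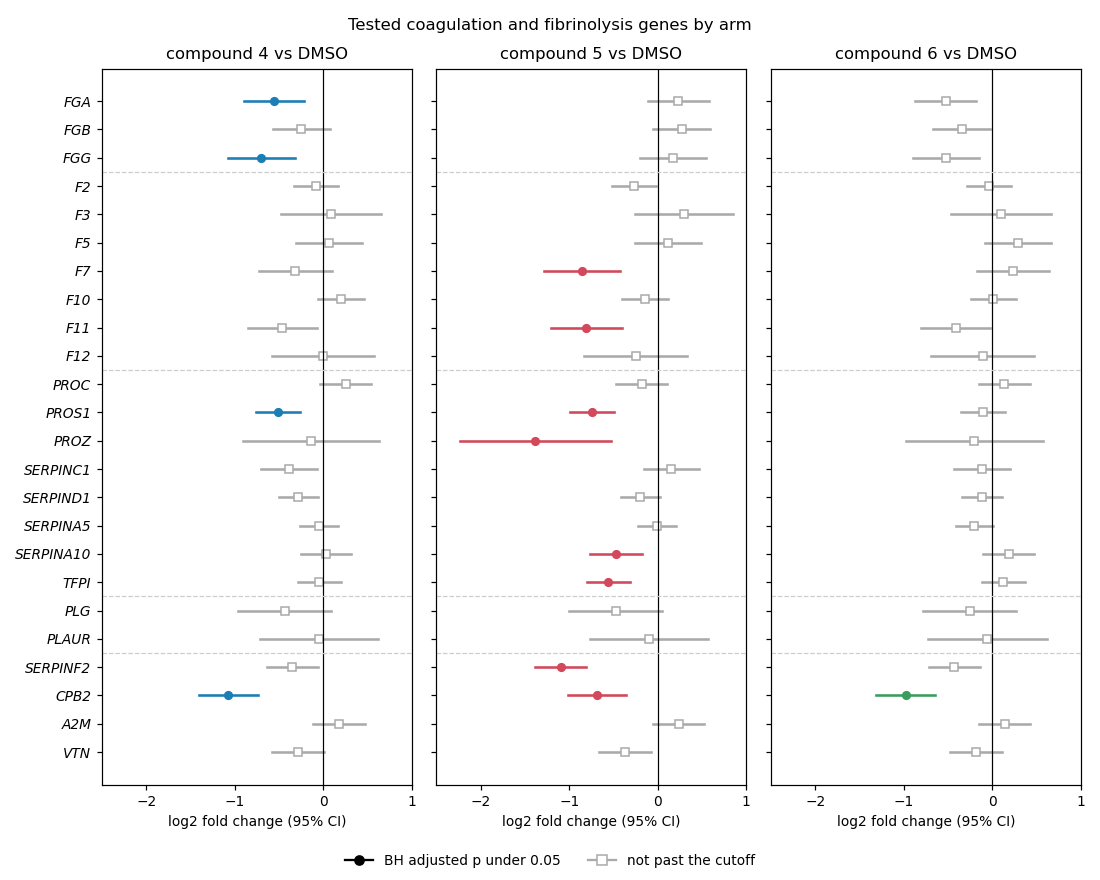
Log2 fold change against DMSO with its 95% confidence interval for the tested genes other than KNG1, ordered by arm, in a panel for each compound. Filled circles mark an adjusted p under 0.05 and open squares the rest. Every filled circle lies below 0, from -0.47 for SERPINA10 to -1.38 for PROZ, both under compound 5.

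Fibrinogen is a hexamer of paired alpha, beta and gamma chains encoded by FGA, FGB and FGG. The chains lie together on chromosome 4 (GRCh38, GENCODE 29), within chr4:154562956-154612967, a span of 50 kb. Their promoters are shown because all 3 chains differed between compound 5 and the other compounds, and that of KNG1 because its counts were high under compound 5 alone. The sequences are the 250 bases before the RefSeq start site (GRCh38.p14), 5′ to 3′ on the gene's strand. They are chr4:154590743-154590992 on the minus strand for FGA, chr4:154562730-154562979 on the plus strand for FGB, chr4:154612657-154612906 on the minus strand for FGG and chr3:186717109-186717358 on the plus strand for KNG1. GENCODE 29 places the start of each of these genes further upstream in part of its transcripts. In that annotation some of the bases printed for FGA, FGB and KNG1, and all of those for FGG, lie within the gene. Capitals mark matches, on either strand, to 4 motifs: the HNF1 core GTTAAT, the IL-6 response element core CTGGGA, the AP-1 site TGANTCA and the C/EBP site TTGNNNAAT.
FGA: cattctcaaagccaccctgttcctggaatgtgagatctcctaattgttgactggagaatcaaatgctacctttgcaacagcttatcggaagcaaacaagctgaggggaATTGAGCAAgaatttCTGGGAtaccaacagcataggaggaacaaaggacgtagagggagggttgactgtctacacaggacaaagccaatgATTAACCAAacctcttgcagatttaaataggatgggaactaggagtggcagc
FGB: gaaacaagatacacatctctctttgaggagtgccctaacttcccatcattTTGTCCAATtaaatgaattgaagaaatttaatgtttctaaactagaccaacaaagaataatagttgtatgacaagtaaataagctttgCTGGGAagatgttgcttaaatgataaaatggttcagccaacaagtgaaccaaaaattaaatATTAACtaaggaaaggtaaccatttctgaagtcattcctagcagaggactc
FGG: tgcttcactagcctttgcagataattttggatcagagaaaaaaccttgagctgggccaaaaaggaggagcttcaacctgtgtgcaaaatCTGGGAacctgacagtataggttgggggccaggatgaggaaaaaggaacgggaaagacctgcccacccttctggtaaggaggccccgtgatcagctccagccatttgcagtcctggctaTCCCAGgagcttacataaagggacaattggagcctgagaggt
KNG1: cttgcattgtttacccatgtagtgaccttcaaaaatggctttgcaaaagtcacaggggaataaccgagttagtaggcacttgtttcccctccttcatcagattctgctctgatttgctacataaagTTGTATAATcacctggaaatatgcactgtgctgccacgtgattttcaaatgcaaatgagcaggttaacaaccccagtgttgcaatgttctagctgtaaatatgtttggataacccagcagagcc

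The C/EBP motif was found in 11.3% of 35116 RefSeq promoters (250 bases before to 50 after the start) and in 7 of the 26 members with an entry, FGA, FGB and KNG1 among them. The HNF1 core was in 6.88% of all promoters and in 7 of the 26, including FGA and FGB. The IL-6 core was in 33.3% of all promoters and in 12 of the 26, all fibrinogen chains included, and the AP-1 site in 7.71% of all promoters and in 2 of the 26, F3 and PLAUR. In FGA the matches to the HNF1 core and to a C/EBP site overlapped, both starting 52 bases before the start site. In FGB the HNF1 core began 51 bases before it. In KNG1 the single match was a C/EBP site 124 bases before the start, and in FGG only the IL-6 core matched, 161 and 42 bases before the start. Such matches are descriptions of letters and show no binding. CPB2, F7, F11 and TFPI were among the members with a promoter entry and no match, and SERPINC1, SERPINF2, PLAT, THBD and A2M had no entry.

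Under compound 4 the FGA and FGG transcripts fell, while no fibrinogen chain was called under compound 5 or compound 6. FGA was at 624.5 and 617 CPM in DMSO, 367 and 476 under compound 4, 649 and 810 under compound 5, and 478 and 386 under compound 6. FGG was at 941 and 909 CPM in DMSO, 469 and 668 under compound 4, 928 and 1152 under compound 5, and 710 and 581 under compound 6. All samples of compounds 4 and 6 lay below both DMSO samples for these chains, whereas those of compound 5 lay above or around them. FGB was at 192 and 187 CPM in DMSO, 139 and 180 under compound 4, 206 and 250 under compound 5, and 161 and 137 under compound 6. Its samples under compounds 4 and 6 also lay below both DMSO samples, by less than those of the other chains, and both compound 5 samples lay above.

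With compound 4, FGG fell to 61.5% of its DMSO level (log2 fold change -0.70, SE 0.17, adjusted p = 0.0233) and FGA to 68% (log2 fold change -0.56, SE 0.16, adjusted p = 0.0413). FGB, at -0.25, did not pass (adjusted p = 0.312). Both calls were lost without either DMSO sample or without compound 4 replicate 1, with adjusted p of 0.135 to 0.181 for FGA and 0.0703 to 0.116 for FGG. Blocking on the replicate number gave FGA an adjusted p of 0.0516. With compound 6 the log2 fold changes were -0.52 for FGA, -0.34 for FGB and -0.52 for FGG, at adjusted p of 0.0824, 0.220 and 0.113, so none was called. FGA and FGG passed under compound 6 in DESeq2. With compound 5 the values were 0.23, 0.27 and 0.17, none past the cutoff, although FGB passed in the groups compared alone. Over the same samples the hepatocyte marker AFP fell by 0.63 on the log2 scale under compound 4 (adjusted p = 0.00861) and by 0.68 under compound 5 (adjusted p = 0.00278).

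Fibrinogen also differed between compounds. All 3 chains were higher under compound 5 than under compound 4, FGA by 0.79 (SE 0.16, adjusted p = 0.013), FGB by 0.52 (SE 0.15, adjusted p = 0.0416) and FGG by 0.87 (SE 0.17, adjusted p = 0.0128) on the log2 scale, with no overlap of the samples. They were also higher than under compound 6, FGA by 0.76 (adjusted p = 0.0155), FGB by 0.61 (adjusted p = 0.0273) and FGG by 0.69 (adjusted p = 0.0314). Each of these 6 calls was lost when compound 5 replicate 2, the sample in which each chain was highest, was left out (adjusted p between 0.0918 and 0.236). FGB in both contrasts and FGG against compound 6 were lost in 5 of the 8 fits without a sample, among them the fit without DMSO replicate 1, and FGA against compound 6 also without compound 6 replicate 2. FGB against compound 4 was lost as well by library size alone (adjusted p = 0.0599) and in the groups compared alone (adjusted p = 0.0726). The differences between compounds 4 and 6 were -0.03 for FGA (95% interval -0.37 to 0.31), 0.10 for FGB (-0.23 to 0.42) and -0.18 for FGG (-0.56 to 0.19), and their samples overlapped.

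Among the procoagulant factors 8 of 10 were tested. Compound 5 gave 3 calls, KNG1, F7 and F11, beside 28.1% of all genes, and compounds 4 and 6 gave none, beside 11.9% and 4.40%. KNG1 encodes kininogen, the high molecular weight form of which is a cofactor of contact activation and the precursor of bradykinin. It lies at chr3:186717276-186744410, next to HRG. It had 3 counts in each DMSO sample, 5 and 4 under compound 4, 58 and 93 under compound 5, and 3 and 1 under compound 6. In CPM these were 0.295 and 0.247 in DMSO, 0.428 and 0.312 under compound 4, 5.32 and 7.30 under compound 5, and 0.313 and 0.0824 under compound 6. By its entry through compound 5 alone, KNG1 had to stand apart there. Scaled by library size, the pooled count under compound 5 was 23.8 times that in DMSO, beside 1.37 for compound 4 and 0.685 for compound 6. These ratios describe the counts alone. Neither p nor interval is printed for KNG1, for the reason given above. Even under compound 5 its level remained far below that of fibrinogen. HRG, its neighbour, had 0 and 1 count under compound 5. The antisense gene AC068631.1, which overlaps both, had 0 to 3 counts in all samples.

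F7 (factor VII, the protease that tissue factor activates) and F11 (chr4:186265945-186288806, plus strand, factor XI of the intrinsic pathway) fell under compound 5. F7 was at 10.8 and 9.62 CPM in DMSO, 9.06 and 7.33 under compound 4, 5.68 and 5.57 under compound 5, and 10.5 and 13.4 under compound 6. F11 was at 13.8 and 12.4 CPM in DMSO, 9.83 and 9.13 under compound 4, 7.24 and 7.69 under compound 5, and 11.4 and 8.40 under compound 6. For both genes the compound 5 samples were the lowest of all 8. F7 was at 55.2% of DMSO (log2 fold change -0.86, SE 0.20, adjusted p = 0.0091) and F11 at 57.2% (log2 fold change -0.81, SE 0.18, adjusted p = 0.00839). The F7 call was lost without DMSO replicate 1 or either compound 5 sample (adjusted p 0.0558 to 0.0689), and the F11 call without DMSO replicate 1 or compound 5 replicate 1 (adjusted p 0.0661 and 0.0676). F7 was also lower than under compound 6, by -1.09 (SE 0.19, adjusted p = 0.0090), a call lost without either compound 5 sample (adjusted p 0.066 and 0.0749).

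The remaining procoagulant genes passed the cutoff in no comparison with DMSO. Prothrombin (F2) was at 511 and 463 CPM in DMSO and 390 and 417 under compound 5, a log2 fold change of -0.27 (adjusted p = 0.0957) that passed with upper-quartile factors and by library size alone. F10 (factor X), F5 (factor V, the cofactor of factor Xa), F3 (tissue factor) and F12 (factor XII) ranged from -0.25 to 0.30 with the 3 compounds. F12 shares its locus with GRK6 on the other strand, which had 461 to 670 counts, and how the authors' quantification treated strand is not given in the sources used here. F7, F10 and PROZ lie together within chr13:113105788-113172383, a span of 66.6 kb. In this cluster F7 and PROZ fell under compound 5, and F10, which lies between them, had a log2 fold change of -0.15 (adjusted p = 0.373).

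Anticoagulants gave 4 calls among 8 tested genes under compound 5, all lower, 1 under compound 4 and none under compound 6, where 14.2%, 5.42% and 1.60% of all genes were called lower. PROS1 (chr3:93873033-93980003, minus strand) encodes protein S, the cofactor of activated protein C. It was at 77.3 and 76.4 CPM in DMSO, 56.5 and 51.4 under compound 4, 42.8 and 48.9 under compound 5, and 74.4 and 68.5 under compound 6. Samples of compounds 4 and 5 lay below all others. PROS1 was at 59.7% of DMSO under compound 5 (log2 fold change -0.74, SE 0.11, adjusted p = 0.00114) and at 70.2% under compound 4 (log2 fold change -0.51, SE 0.11, adjusted p = 0.0149), and at -0.11 under compound 6 (adjusted p = 0.651). The compound 4 call was lost without either DMSO sample or compound 4 replicate 2 (adjusted p 0.0617 to 0.106). Of the 31-base words of PROS1 transcripts, 13.6% also occur in other genes, mainly in its pseudogene PROS2P, so part of its reads could have been assigned between them.

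TFPI (chr2:187464230-187565760, minus strand), which blocks the tissue factor and factor VIIa complex, was at 463 and 424 CPM in DMSO, 402 and 457 under compound 4, 311 and 290 under compound 5, and 508 and 460 under compound 6. Both compound 5 samples lay below all others. An antisense gene at the locus had 47 to 92 counts. TFPI was at 67.8% of DMSO under compound 5 (log2 fold change -0.56, SE 0.11, adjusted p = 0.00426). It was also lower under compound 5 than under compound 4, by -0.52 (SE 0.11, adjusted p = 0.0166), and than under compound 6, by -0.69 (SE 0.11, adjusted p = 0.00566). These last calls were lost without either compound 5 sample, and also without compound 4 replicate 2 or compound 6 replicate 1 respectively (adjusted p 0.051 to 0.119).

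PROZ (protein Z) and SERPINA10 (chr14:94280455-94293271, minus strand, the protein Z-dependent protease inhibitor) encode partners in the inhibition of factor Xa, and both were lowest under compound 5. PROZ was at 3.45 and 2.38 CPM in DMSO, 3.16 and 2.11 under compound 4, 1.28 and 0.942 under compound 5, and 2.29 and 2.72 under compound 6, with 12 to 37 counts per sample. SERPINA10 was at 29.6 and 26.5 CPM in DMSO, 29.2 and 28.1 under compound 4, 19.5 and 20.9 under compound 5, and 34.4 and 29.5 under compound 6. In both genes compound 5 was separated from all other samples, while compound 4 overlapped DMSO. PROZ was at 38.4% of DMSO (log2 fold change -1.38, SE 0.39, adjusted p = 0.0234) and SERPINA10 at 72.2% (log2 fold change -0.47, SE 0.13, adjusted p = 0.0237). Neither passed in DESeq2, with adjusted p of 0.0909 and 0.0872. PROZ was lost without DMSO replicate 1 or either compound 5 sample (adjusted p 0.0718 to 0.154), and SERPINA10 without any of the DMSO and compound 5 samples (adjusted p 0.0605 to 0.16).

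SERPINC1 (antithrombin, the main inhibitor of thrombin and factor Xa) was not called against DMSO, at 44.0 and 42.8 CPM in DMSO, 29.5 and 36.7 under compound 4, 42.6 and 53.9 under compound 5, and 39.93 and 40.02 under compound 6. It was higher under compound 5 than under compound 4 by 0.54 (SE 0.14, adjusted p = 0.0337), a call lost in 5 of the 8 fits without a sample (any DMSO or compound 5 sample, or compound 4 replicate 1, adjusted p 0.0524 to 0.222), and also with upper-quartile factors (adjusted p = 0.0503) and in the groups compared alone (adjusted p = 0.0733). PROC (protein C), SERPIND1 and SERPINA5 had log2 fold changes from -0.28 to 0.25 with the 3 compounds, none called. PROC missed the cutoff for compound 5 against compound 4, at -0.44 (adjusted p = 0.0505), and passed it under 6 of the 8 alternatives at that cutoff, namely DESeq2, the replicate block, upper-quartile factors, library size alone and both other filters, and without compound 4 replicate 1. SERPIND1 lies within PI4KA on the other strand, which had 680 to 1364 counts. The members F2, F7, F9, F10, PROC, PROS1 and PROZ encode vitamin K-dependent proteins. Of the 6 tested, all had a log2 fold change below 0 under compound 5, with 3 called, beside 14.2% of all genes called lower, and a median of -0.51, beside -0.03 for all genes. With compound 4 the median was -0.11 with 1 called, and under compound 6 it was -0.01 with none called, beside medians of 0.00 and 0.00 and shares called lower of 5.42% and 1.60% over all genes.

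The genes of plasminogen activation were expressed at low levels, and neither of the 2 tested was called. PLG, encoding plasminogen, was at 7.97 to 11.1 CPM in DMSO and 5.22 to 8.32 with the compounds, with log2 fold changes of -0.44, -0.48 and -0.26 for compounds 4, 5 and 6 and adjusted p of 0.274, 0.158 and 0.605. Of its transcript words 24.4% are shared with other genes, mainly PLGLB1. PLAUR, the urokinase receptor, was at 2.64 to 3.65 CPM in all samples and its groups overlapped. PLAT had 7 and 2 counts in DMSO, 9 and 5 under compound 4, 4 and 3 under compound 5, and 7 and 17 under compound 6. PLAU had 0 to 6 counts and HRG 0 to 2 counts per sample, and F13B 0 to 3. Scaled by library size, the pooled PLAT count under compound 6 was 2.74 times that in DMSO (95% exact counting interval 1.23 to 6.70), most of it from replicate 2. For PLAU the ratios, scaled likewise, of 4.10, 4.72 and 4.62 for compounds 4, 5 and 6 rested on 2 counts in DMSO, with lower bounds of 0.848, 1.01 and 0.957. These intervals hold no replicate spread, and at this depth no test was made.

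The inhibitors of fibrinolysis included CPB2, the only member called with all compounds. CPB2 (chr13:46053195-46105033, minus strand) encodes the thrombin-activatable fibrinolysis inhibitor, which removes the lysines that bind plasminogen to fibrin. It was at 47.9 and 41.0 CPM in DMSO, 20.9 and 21.2 under compound 4, 25.7 and 29.4 under compound 5, and 25.5 and 19.8 under compound 6. All 6 treated samples lay below both DMSO samples. CPB2-AS1, antisense to it, had 5 to 19 counts. CPB2 was at 47.4% of DMSO under compound 4 (log2 fold change -1.08, SE 0.15, adjusted p = 0.00183), at 62.1% under compound 5 (log2 fold change -0.69, SE 0.15, adjusted p = 0.00685) and at 50.9% under compound 6 (log2 fold change -0.98, SE 0.15, adjusted p = 0.00879). The compound 5 call was lost without DMSO replicate 1 or compound 5 replicate 1 (adjusted p 0.0679 and 0.0783), and the compound 6 call without either DMSO sample or compound 6 replicate 2 (adjusted p 0.0738 to 0.115). Between the compounds its differences were 0.39 for 5 against 4 (95% interval 0.05 to 0.73, adjusted p = 0.111), 0.29 for 5 against 6 (-0.05 to 0.63) and -0.10 for 4 against 6 (-0.44 to 0.24).

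SERPINF2 (chr17:1742836-1755268, plus strand) fell under compound 5. It was at 474 and 416 CPM in DMSO, 307 and 389 under compound 4, 199 and 217 under compound 5, and 348 and 312 under compound 6. Every treated sample was below both DMSO samples, and those of compound 5 were below all others. The level under compound 5 was 46.7% of DMSO (log2 fold change -1.10, SE 0.13, adjusted p = 3.59e-04). The values under compounds 4 and 6 were -0.35 (adjusted p = 0.109) and -0.43 (adjusted p = 0.0895). Both were called without a filter, and the latter also in DESeq2 and in the groups compared alone. Compound 5 was lower than compound 4 by -0.74 (SE 0.13, adjusted p = 0.00926) and than compound 6 by -0.67 (SE 0.13, adjusted p = 0.0133), calls that were lost without either compound 5 sample and, against compound 6, also without compound 6 replicate 1 (adjusted p 0.061 to 0.116). VTN (vitronectin, an adhesive glycoprotein of plasma) had log2 fold changes of -0.29, -0.37 and -0.18 for compounds 4, 5 and 6, not called (adjusted p 0.191, 0.0591 and 0.490). Under compound 5 it passed with upper-quartile factors, by library size alone, in the groups compared alone and in 3 of the 8 fits without a sample. A2M was at 4082 and 4466 CPM in DMSO and 4288 to 5400 CPM with the compounds, with log2 fold changes of 0.14 to 0.24 that did not pass, although that of compound 5 passed without a filter.

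**Figure D2:**
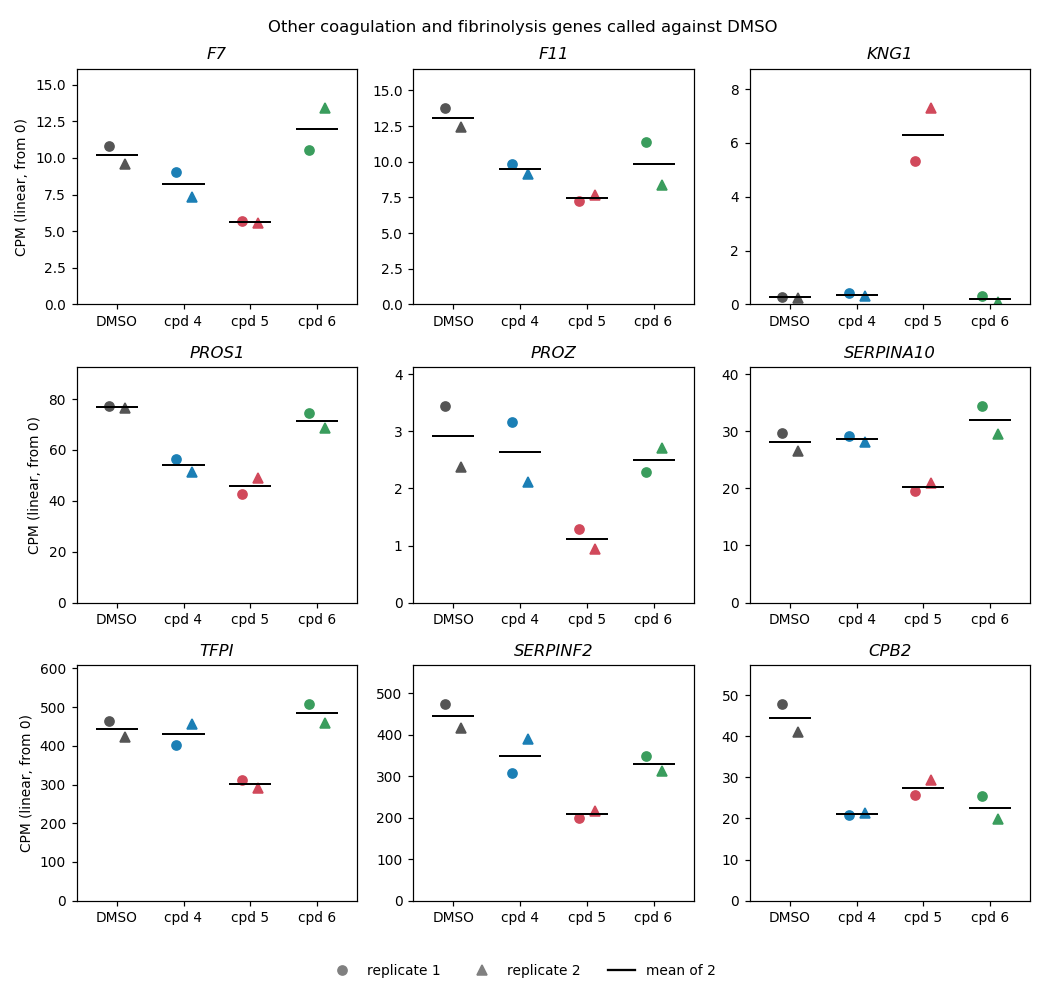
CPM of the other 9 members called against DMSO in each of the 8 samples, on linear axes from 0, with a circle for replicate 1, a triangle for replicate 2 and a bar for the mean of 2. CPB2 is lower in all treated samples, KNG1 is high in the compound 5 samples alone, and the other genes are lowest under compound 5.

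Between compounds, 3 pairs were compared, each adjusted over the 13404 genes. Compound 5 differed from compound 4 in 8 of the 25 members, 5 higher and 3 lower (13.9% of all genes), and from compound 6 in 9, 4 higher and 5 lower (9.91% of all genes). FGA, FGB, FGG and KNG1 were higher, and SERPINA10, SERPINF2 and TFPI lower, in both. KNG1, counted here among the higher genes, rests on the counts given above, 58 and 93 under compound 5 compared with 1 to 5 under the other compounds, and entered only through compound 5. SERPINA10 was lower by -0.50 (SE 0.13, adjusted p = 0.034) than under compound 4 and by -0.66 (SE 0.13, adjusted p = 0.0144) than under compound 6. PROS1 was lower under compound 5 than under compound 6 by -0.64 (SE 0.11, adjusted p = 0.0090), and its difference from compound 4 was -0.23 (95% interval -0.48 to 0.02), not called. Without single samples, SERPINA10 was lost in 6 and 3 of the 8 fits (adjusted p 0.052 to 0.192), against compound 4 also in DESeq2 (adjusted p = 0.086) and in the groups compared alone (adjusted p = 0.0697), and PROS1 without replicate 1 of compound 5 or of compound 6 (adjusted p 0.104 and 0.0734).

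Compounds 4 and 6, whose rings differ in tert-butyl against cyclohexyl groups, differed in 0 of the 25 members in edgeR (0.0448% of all genes) and in 0 in DESeq2. At an unadjusted p under 0.05 there were 2, beside 9.81% of all genes, F7 (log2 difference -0.56, 95% interval -0.96 to -0.15) and PROS1 (-0.41, -0.65 to -0.16), both lower under compound 4. For the other members the intervals were too wide to call the compounds alike, for example -0.17 (-0.41 to 0.07) for TFPI.

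A further 37 genes of the pathway, such as receptors, vitamin K cycle enzymes and protease inhibitors, were examined beside the members, and 25 of them could be tested. Compound 4 changed 6 (5 higher, 1 lower; 24% of those tested, beside 11.9% of all genes), compound 5 changed 11 (6 higher, 5 lower; 44%, beside 28.1%) and compound 6 changed 4 (4 higher; 16%, beside 4.40%), with median log2 fold changes of 0.14, 0.02 and 0.12. The list was chosen with earlier results of these data known, so nothing is concluded from shares above those of all genes.

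SERPINE2, encoding protease nexin-1, an inhibitor of thrombin and plasminogen activators, was at 12.5 and 8.38 CPM in DMSO, 33.2 and 30.03 under compound 4, 28.6 and 27.2 under compound 5, and 22.2 and 27.2 under compound 6. It rose by 1.61, 1.43 and 1.26 on the log2 scale (adjusted p 8.23e-04, 5.26e-04 and 0.00773). FURIN, the proprotein convertase, rose by 0.94, 0.96 and 1.10 (adjusted p 0.00217, 8.57e-04 and 0.00465). F2RL1, the protease-activated receptor PAR2, rose by 1.12, 2.03 and 1.36 (adjusted p 0.0245, 6.49e-04 and 0.0238), and compound 5 brought it to 86.9 and 85.7 CPM, compared with 19.5 and 22.7 CPM for DMSO, while compound 6 gave 34.0 and 74.0 CPM. For these 3 genes every treated sample lay above both DMSO samples. They stand together because they were called higher with every compound, so this separation largely follows from the choice. The compound 6 calls of all 3 were lost without DMSO replicate 2 (adjusted p 0.0818 to 0.153), those of SERPINE2 and F2RL1 also without compound 6 replicate 2, where the F2RL1 value dropped to 0.69, and that of F2RL1 also without DMSO replicate 1. The compound 4 call of F2RL1 was lost without either DMSO sample (adjusted p 0.115 and 0.144).

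**Figure D3:**
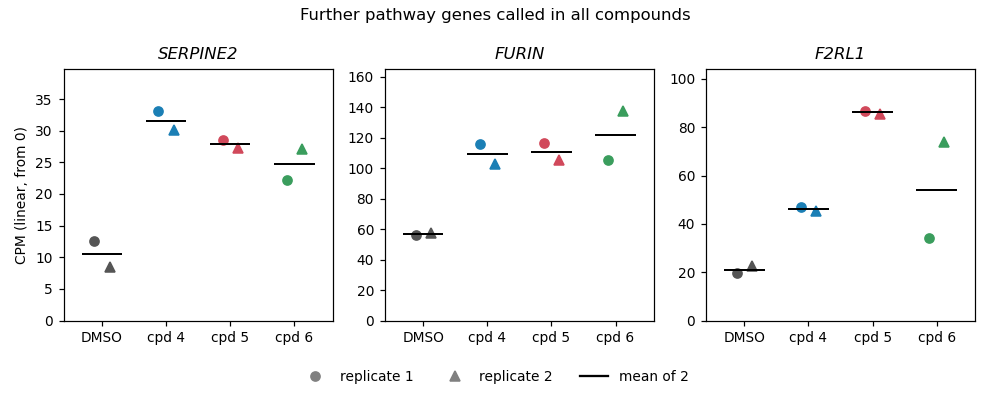
CPM of SERPINE2, FURIN and F2RL1 in each of the 8 samples, on linear axes from 0, with a circle for replicate 1, a triangle for replicate 2 and a bar for the mean of 2. The genes were picked for being called higher with every compound. All treated samples lie above both DMSO samples in each panel, and compound 6 replicate 2 is the highest for FURIN.

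Other pathway genes changed with fewer compounds. TGM2 (tissue transglutaminase, which cross-links proteins as factor XIII does) rose under compounds 4 and 6, by 0.59 (adjusted p = 0.024) and 0.83 (adjusted p = 0.0135). HPN (hepsin, a membrane protease that can activate factor VII) rose under compound 4 by 0.59 (adjusted p = 0.00643). GGCX, the carboxylase that modifies vitamin K-dependent factors, fell under compound 4 by 0.56 (adjusted p = 0.0232), and PLGRKT, a plasminogen receptor, fell under compound 5 by 0.70 (adjusted p = 0.0489) on the log2 scale. The PLGRKT call was lost in 7 of the 8 fits without a sample, in DESeq2 (adjusted p = 0.212), with RLE factors (adjusted p = 0.0545) and with the replicate block (adjusted p = 0.0625). Without DMSO replicate 2 the calls of HPN, GGCX and TGM2 were lost too (adjusted p 0.0938 to 0.227), and those of TGM2 and GGCX also without single samples of their compound. GGCX was lost too without DMSO replicate 1 (adjusted p = 0.0893) and in the groups compared alone (adjusted p = 0.0517). LMAN1 and MCFD2, the latter named after its values were seen, form the cargo receptor that carries factor V out of the endoplasmic reticulum. They rose under compound 5 by 0.51 (adjusted p = 0.00564) and 0.47 (adjusted p = 0.00745), calls lost without DMSO replicate 1 or compound 5 replicate 1 (adjusted p 0.0558 to 0.0834), while F5 itself had a log2 fold change of 0.12 (adjusted p = 0.642).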

How the data were processed

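RNA of 8 samples was sequenced in bulk after library preparation with a directional kit. The deposited values are estimated counts per gene, which the authors made with Salmon 1.5.0 on the GENCODE 38 transcriptome and tximeta 1.16.0, and which are whole numbers. The file header marks replicate 1 of compounds 4 and 5 as merged. In R 4.3.3 with edgeR 4.0.16, the 13404 genes kept by filterByExpr were scaled by TMM (factors 0.958 to 1.04) and fitted by the quasi-likelihood test over all 8 samples and 4 groups, without a block, with adjusted p under 0.05 as cutoff. CPM use the scaled library sizes. SE is the log2 fold change over the root of F. Alternatives were DESeq2 1.42.0 (the tool of the authors), RLE, upper-quartile and library size scaling, other filters (no filter, or 10 counts in every sample), the groups compared alone, a cutoff of 0.01, a replicate block and leaving out each sample. Deviations of same-numbered samples, whose pairing comes only from the day of the labels, correlated by -0.083 to 0.16 between groups. Replicates of a group differed by more than counting noise (chi-square per degree of freedom 5.51 to 17.2). The test was tried on simulated data.

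Symbols, positions and transcripts came from GENCODE 29 (GRCh38) and promoters from RefSeq. All members are named, those called and the fibrinogen chains with every sample, and of the further genes at most 8 called ones with the largest change, to which MCFD2 was added after its values were seen. A result that the rule also covers is not reported here. Members and lists were chosen with earlier results of these data known.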

Additional observations from a re-analysis of the deposited data

How the results depend on the processing

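No named fold change that passed the cutoff reversed its sign under any alternative. The numbers of members called moved as follows. At a cutoff of 0.01 they were 1 with compound 4, 2 for compound 5 against 4 and 4 for compound 5 against 6, and further genes called were 3, 5 and 2 with compounds 4, 5 and 6. With compound 6, 4 members were called without a filter, in the groups compared alone and in DESeq2. For compound 5 against 4, the groups compared alone gave 5. Leaving out each sample gave 1 to 4 members with compound 4, 4 to 11 with compound 5, 0 to 4 with compound 6, 1 to 8 for compound 5 against 4, 2 to 9 for compound 5 against 6 and 0 to 0 for compound 4 against 6, and 2 to 6, 3 to 12 and 0 to 5 further genes with compounds 4, 5 and 6. The lone sample of a group was then assumed to vary like the others. FGB was lost for compound 5 against 4 with upper-quartile factors (adjusted p = 0.0652).

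With the replicate block, 3, 9 and 1 members and 6, 10 and 4 further genes were called with compounds 4, 5 and 6, beside 11.6%, 27.4% and 3.72% of all genes. Between compounds it called 9, 9 and 0 members for 5 against 4, 5 against 6 and 4 against 6, beside 12.2%, 9.13% and 0.0448% of all genes. The block changed no other call against DMSO than those of FGA and PLGRKT. Over all genes, compound 4 against 6 gave 294 calls without a filter and 74 in DESeq2, beside 6, compound 6 against DMSO gave 1441 without a filter beside 590, and compound 5 against 4 gave 897 in the groups compared alone and 2812 without a filter, beside 1869. Compound 5 against 6 gave 2117 without a filter, beside 1329, and compound 4 against 6 gave 2 in the groups compared alone. At 0.01 the counts were 591, 1809 and 92 for compounds 4, 5 and 6 against DMSO (1598, 3763 and 590 at 0.05), and 279, 282 and 1 for 5 against 4, 5 against 6 and 4 against 6. Without single samples they ranged over 335 to 1703, 1680 to 4519 and 1 to 1096 against DMSO, and over 111 to 2709, 143 to 1875 and 0 to 117 between compounds. Upper-quartile and library size scaling put the median log2 fold change of all genes with compound 5 at -0.12 and -0.14, beside -0.03. KNG1 was not tested where 10 counts in every sample were required. Depth limited the genes with few counts (KNG1 outside compound 5, F13B, PLAT, PLAU and HRG).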
